A study of Homo sapiens with 4 samples.

Results

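Human chromosome 20 was examined arm by arm for its contact with the nuclear lamina in 2 prostate cancer cell lines. Its members are all entries of the chromosome that are 40 kb wide and hold a value in both lines, split into a short arm (bins that end at or before position 26300000 of hg19) and a long arm (bins that start at or after position 29400000, counted from 0). The short arm had 655 bins and the long arm had 836, together 1491 of the 71436 such bins of the genome. The measured sequence was 26.2 Mb of the short arm, from 80001 to 26280000, and 33.4 Mb of the long arm, from 29400001 to 62960000. All positions are in hg19 and counted from 1.

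Lamin B1 was mapped by chromatin immunoprecipitation and sequencing (ChIP-seq) from formaldehyde-fixed cells in culture. Both lines are established: LNCaP comes from a prostate adenocarcinoma, VCaP from prostate cancer that had spread to bone. This is no contrast of a primary tumour with a metastasis. With 1 lamin B1 library and 1 input library (no antibody) per line, each of the 4 groups is a single library, and the labels name no drug treatment. The lines were grown in different media, RPMI for LNCaP and DMEM F12 for VCaP, so the line and its medium cannot be told apart.

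The nuclear lamina is a mesh of lamin proteins under the inner nuclear membrane, and lamin B1 is one of its main parts. Long stretches of chromatin touch it, called lamina-associated domains, and these are on average poor in genes, little transcribed and late to replicate. Some of them are held at the lamina in most cell types, and others differ between cell types. Chromosome 20 is a short chromosome whose arms are of similar size, and it carries the prion protein gene PRNP and the Notch ligand gene JAG1 on the short arm and the imprinted GNAS locus on the long arm.

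The value of a bin is its log2 enrichment, the log2 ratio of lamin B1 ChIP over input of the same line. A value of 0 means equal ChIP and input after the scaling of the deposited values, which is not known here. A bin in the associated state is one that the deposited hidden Markov model places in its state of higher enrichment. No difference has a replicate check, and no test was made. Chromosome 20 was selected on the log2 enrichment of both lines, with the difference between them known, so that difference is described and supports nothing. Read numbers are unknown. Bin-to-bin noise, taken from bins 3 apart, had an SD of 0.15 log2 units in LNCaP, 0.22 in VCaP and 0.20 for the difference between the lines over the genome. Real change over that distance is counted in it, and it does not measure the spread between libraries. In cell populations, fewer cells with a contact and a weaker contact per cell cannot be told apart.

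The arms had similar medians in LNCaP, and the long arm had the higher median in VCaP. In LNCaP the median log2 enrichment was -0.04 on the short arm (interquartile range -0.18 to 0.12) and -0.05 on the long arm (-0.20 to 0.13). The long arm minus the short arm was -0.01. In VCaP the median was 0.32 on the short arm (0.09 to 0.51) and 0.55 on the long arm (0.28 to 0.78). The long arm was 0.23 higher there, with no replicate to set this against. It was 0.13 when the stretch of the short arm from 8 to 17 Mb was left out, and 0.19 when the long arm from 60 Mb on was left out. Neither omission was planned. Over the genome the medians were 0.06 in LNCaP and 0.19 in VCaP. Both arms therefore lay below the genome in LNCaP and above it in VCaP.

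**Figure D1:**
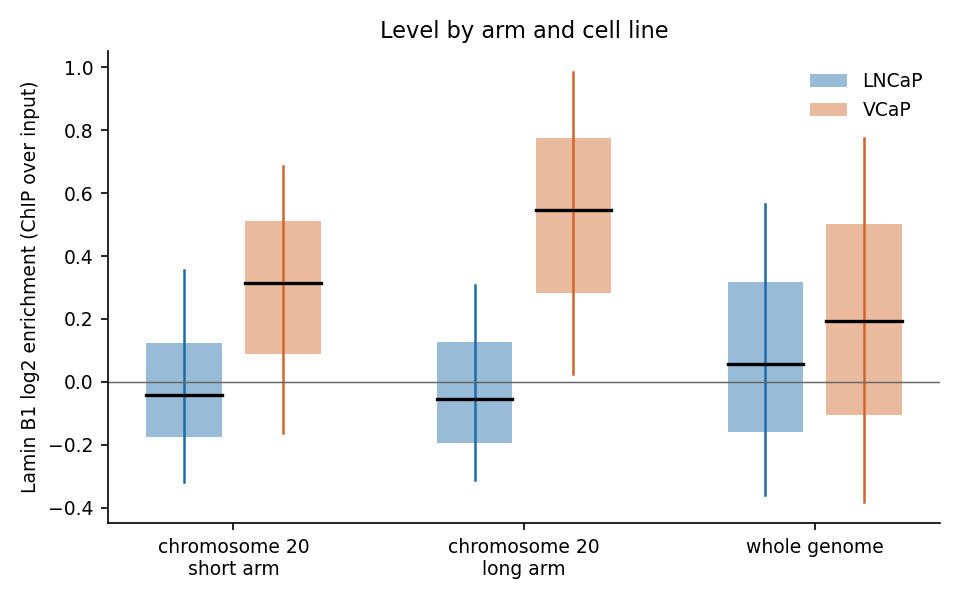
Lamin B1 log2 enrichment over the 40 kb bins of each arm of chromosome 20 and of the whole genome, in LNCaP (blue) and VCaP (orange); black bars are medians, boxes span the 25th to the 75th percentile and lines the 10th to the 90th percentile over bins. The LNCaP medians of both arms sit just below 0 (-0.04 and -0.05), and the VCaP medians step from 0.32 on the short arm to 0.55 on the long arm.

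The extremes did not follow the order of the medians: in both lines the long arm reached further at both ends. Its larger number of bins favours this. In LNCaP the 10th to 90th percentiles were -0.32 to 0.36 on the short arm and -0.31 to 0.31 on the long arm. In VCaP they were -0.16 to 0.69 and 0.03 to 0.98. LNCaP bins ran from -0.71 to 0.67 on the short arm and from -0.74 to 0.77 on the long arm. VCaP bins ran from -0.79 to 1.19 on the short arm and from -0.999 to 1.67 on the long arm. The ranges of the lines overlapped on both arms, and the highest VCaP bins had no counterpart in LNCaP. In LNCaP 40.6% of short-arm bins and 40.3% of long-arm bins were over 0, against 56.9% of all bins of the genome. In VCaP 78.9% and 91.5% were over 0, against 66.9% of the genome.

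The bins beside the limits of the rule had the following values. The last bin of the short arm, from 26240001 to 26280000, had 0.23 in LNCaP and 0.06 in VCaP. The next bin belongs to neither arm and had 0.38 and 0.23. The first bin of the long arm, from 29400001 to 29440000, had 0.20 and 0.11. Each deposited value averages its own entry and the 2 before it, so these neighbours share entries across the centromere gap and are not independent. None of these was in the associated state in either line.

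Bin by bin, VCaP was higher over most of both arms. On the short arm VCaP was higher in 510 of 655 bins (77.9%), with a median VCaP minus LNCaP difference of 0.33 (interquartile range 0.05 to 0.55). On the long arm it was higher in 774 of 836 bins (92.6%), with a median of 0.62 (0.34 to 0.81). Over the genome VCaP was higher in 58.1% of bins, with a median difference of 0.10. After subtracting the genome median of each line, the median difference was 0.19 on the short arm and 0.48 on the long arm, and quantile normalization gave 0.22 and 0.48. The difference thus kept its sign on both arms under these scalings, and 0.13 of it is the shift between the genome medians of the lines.

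Large differences were mostly in 1 direction. A difference over 0.5 log2 units was found in 199 short-arm bins (30.4%) and in 523 long-arm bins (62.6%), against 21.3% of all bins. A difference under -0.5 was found in 2 short-arm bins (0.305%) and 18 long-arm bins (2.15%), against 9.33% of all bins. After centring, 17.7% of short-arm bins were over 0.5 and 1.83% were under -0.5, and on the long arm the shares were 47.2% and 3.35%. The centred shares over all bins are not given here, and the 21.3% and 9.33% above are uncentred. A difference over 1 was found in 12 short-arm bins (1.83%) and 44 long-arm bins (5.26%), against 3.83% of all bins. The short-arm share was thus below that of all bins. A difference under -1 was found in 0 short-arm bins and 1 long-arm bin (0.120%), against 0.735% of all bins. The largest single difference on the short arm was 1.39, in the bin from 26040001 to 26080000 near the centromere, with -0.25 in LNCaP and 1.14 in VCaP. On the long arm it was 1.41, in the bin from 61240001 to 61280000 near the chromosome end, with -0.16 and 1.24.

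The associated state covered a small part of both arms in LNCaP and most of both in VCaP. In LNCaP it held 116 short-arm bins (17.7%) and 156 long-arm bins (18.7%), against 37.9% of all bins. In VCaP it held 400 short-arm bins (61.1%) and 686 long-arm bins (82.1%), against 44.4% of all bins. The arms thus had similar shares in LNCaP and not in VCaP. Leaving out the stretch from 8 to 17 Mb, chosen after seeing the data, raised the VCaP share of the short arm to 83.3%. No low stretch of the long arm was left out, although its windows starting at 52 and 53 Mb had 0% associated in VCaP. The 83.3% and 82.1% are therefore not a like comparison of the arms.

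The overlap of the associated sets is given beside the share of each arm that the lines covered. Of all bins 20.6% were associated in both lines. On the short arm 85 bins were, which is 73.3% of the LNCaP set and 21.2% of the VCaP set, beside arm shares of 61.1% in VCaP and 17.7% in LNCaP. On the long arm the 120 shared bins made up 76.9% of the LNCaP set and 17.5% of the VCaP set, both below the arm shares of 82.1% and 18.7%. Over the genome the overlaps were 54.5% and 46.5%, beside shares of 44.4% and 37.9%. Bins associated only in VCaP numbered 315 on the short arm (48.1%) and 566 on the long arm (67.7%), against 23.8% of all bins. Bins associated only in LNCaP numbered 31 (4.73%) and 36 (4.31%), against 17.2% of all bins. Bins associated in neither line numbered 224 (34.2%) and 114 (13.6%), against 38.4%.

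**Figure D2:**
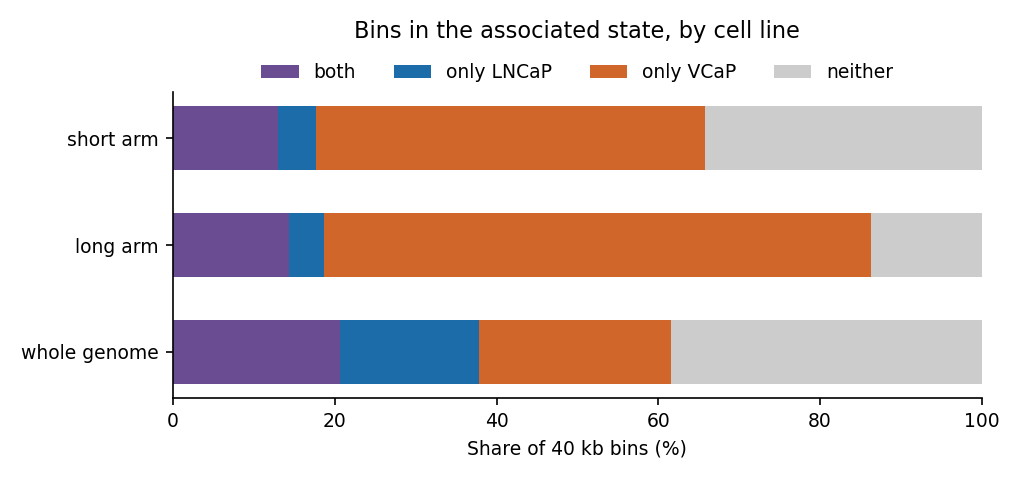
Share of 40 kb bins, in percent, that were in the associated state in both lines, only in LNCaP, only in VCaP or in neither, for each arm of chromosome 20 and for all common bins of the genome. Bins associated only in VCaP make up 48.1% of the short arm, 67.7% of the long arm and 23.8% of the genome.

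The values are given next by class of bin. The classes are states of the same enrichment, so that the difference varies with class is built in. Bins associated in both lines had nearly equal medians on the short arm, 0.43 in LNCaP and 0.44 in VCaP. On the long arm the shared bins had 0.29 in LNCaP and 0.63 in VCaP. In bins associated in neither line, the mean difference was 0.11 on the short arm and 0.25 on the long arm, against 0.02 over the genome. VCaP was therefore higher on the long arm also in bins of equal state, as a mean.

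Along the short arm the profile of VCaP had 3 parts. In the 8 windows of 1 Mb from the chromosome end to 8 Mb, the VCaP mean lay between 0.34 and 0.60. In the 9 windows from 8 to 17 Mb it lay between -0.30 and 0.28. From 17 to 26 Mb it lay between 0.12 and 0.63, with the 3 windows from 20 to 23 Mb at 0.12, 0.12 and 0.16. The middle of the arm was thus low in VCaP, with a smaller low nearer the centromere.

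LNCaP did not follow these parts. Its mean was highest in the windows starting at 7 Mb (0.49) and 12 Mb (0.35), and lowest in the window starting at 25 Mb (-0.23). VCaP exceeded LNCaP in 21 of the 26 windows of the short arm. The other 5 start at 7, 11, 12, 14 and 15 Mb, where VCaP minus LNCaP was -0.14, -0.02, -0.07, -0.22 and -0.19. In windows of 5 Mb the VCaP mean was highest from 80001 to 5000000 (0.53, SD over 123 bins 0.28) and lowest from 10000001 to 15000000 (0.05, SD 0.30 over 125 bins). The LNCaP means there were -0.07 and 0.00. LNCaP was highest from 5000001 to 10000000, with 0.08 against 0.22 in VCaP, and the largest difference on the arm was 0.64 from 25000001 to 26280000, over 32 bins.

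**Figure D3:**
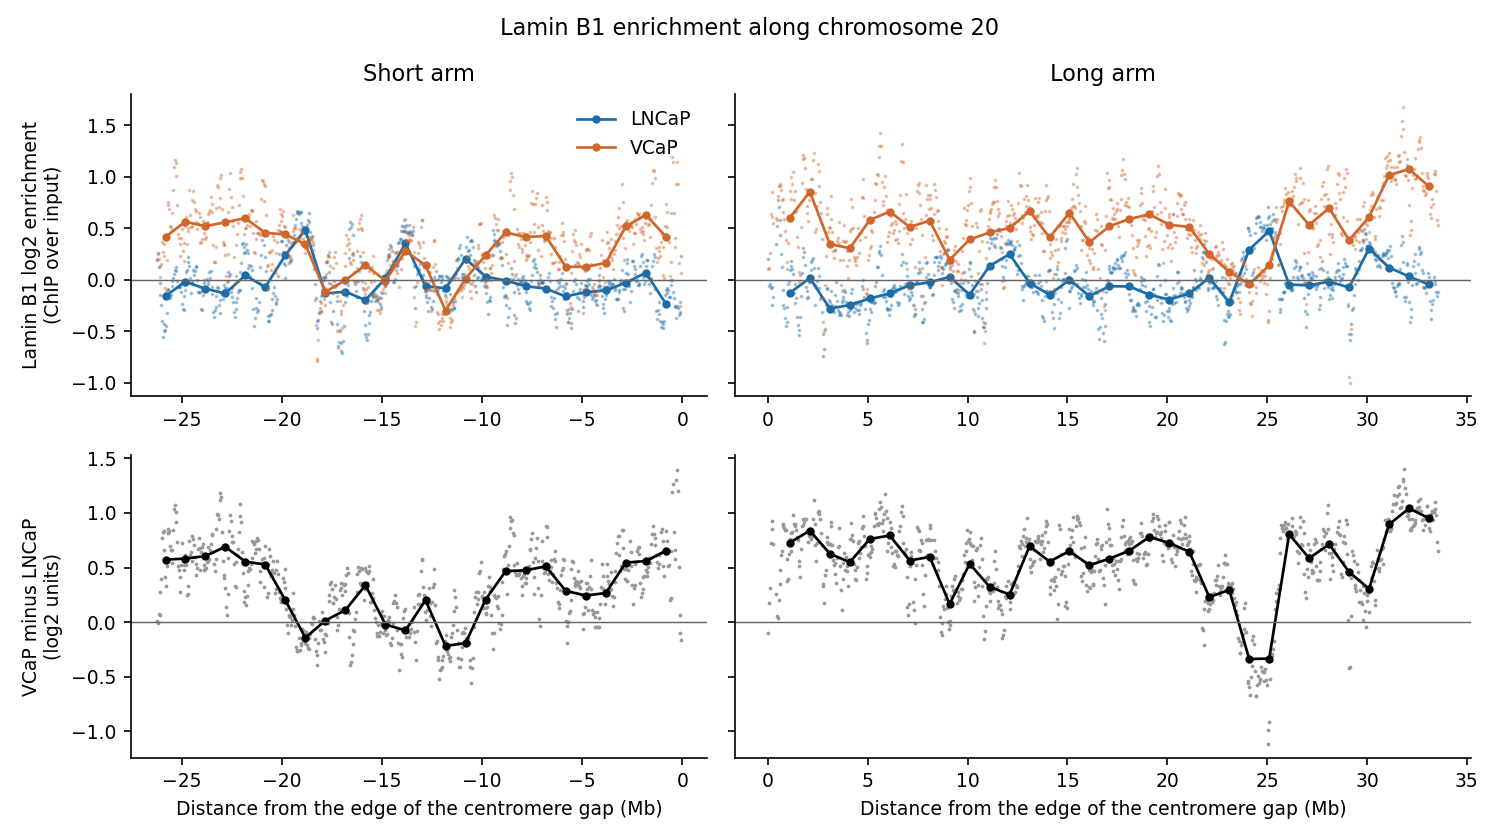
Lamin B1 log2 enrichment (top) and the VCaP minus LNCaP difference (bottom) along both arms of chromosome 20, by distance in Mb from the edge of the centromere gap, negative towards the end of the short arm. Small points are 40 kb bins, and joined points are means of 1 Mb windows with at least 15 bins; the difference is over 0 in 21 of 26 short-arm windows and 31 of 33 long-arm windows.

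The long arm was high in VCaP over most of its length. VCaP exceeded LNCaP in 31 of its 33 windows of 1 Mb, and 17 of them were associated in every bin in VCaP. In LNCaP 21 of the 33 windows had no associated bin. VCaP was lower in the windows starting at 38, 51 and 52 Mb (0.19, 0.25 and 0.08), where its mean still exceeded that of LNCaP. The difference was negative only in the stretch from 53 to 55 Mb. There LNCaP had window means of 0.29 and 0.47 and VCaP had -0.04 and 0.14, differences of -0.34 and -0.33.

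Apart from the first 12 bins of the arm (0.20 in LNCaP, 0.58 in VCaP), the same 5 Mb window was the highest of the long arm in LNCaP and the lowest in VCaP. It spans 50000001 to 55000000, with means of 0.09 in LNCaP (SD over 125 bins 0.31) and 0.19 in VCaP (SD 0.26). The associated state held 36.0% of its bins in LNCaP and 35.2% in VCaP. The lowest LNCaP window was 30000001 to 35000000, with -0.16 in LNCaP and 0.54 in VCaP. The highest VCaP window was the last, from 60000001 to 62960000, with 1.00 in VCaP and 0.04 in LNCaP over 74 bins (SD 0.25 and 0.20). All its bins were associated in VCaP and 25.7% in LNCaP, and its difference of 0.96 (noise SD of the mean 0.04) was the largest of the arm.

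A domain is a run of neighbouring bins that are all associated. LNCaP showed 8 domains on the short arm with a total of 4.64 Mb and 7 on the long arm with 6.24 Mb. VCaP had 9 domains on the short arm with 16.0 Mb and 15 on the long arm with 27.4 Mb. Among the latter, 29480001 to 29680000 and 29800001 to 32120000 are parted only by a wider entry that is no member. That entry was also associated in VCaP, so the long-arm number and median length of VCaP rest on the width rule. On the short arm the lines had similar numbers of domains and similar median lengths, 400 kb in LNCaP and 320 kb in VCaP, and 3 VCaP domains against 1 LNCaP domain reached 1 Mb. Long-arm medians were 760 kb and 1640 kb, and 9 VCaP domains against 3 LNCaP domains reached 1 Mb. Over the genome the medians were 720 kb in LNCaP and 560 kb in VCaP, and 350 of 965 and 387 of 1267 domains reached 1 Mb. The longest VCaP domain of the short arm ran from 600001 to 7920000, which is 7320 kb and 45.8% of that line's domain length on the arm.

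Its values show how the lines share part of a domain. Over its 183 bins the mean was 0.52 in VCaP and 0.06 in LNCaP. LNCaP had 3 domains inside it, from 4280001 to 4640000 (mean 0.29), from 5280001 to 5520000 (0.34) and from 6160001 to 7920000 (0.42). The last of these was the longest LNCaP domain of the arm, and VCaP had the same mean of 0.42 over it. That run of 44 bins was also the longest associated in both lines on the short arm, with LNCaP values from 0.02 to 0.67 and VCaP values from 0.18 to 0.69. The longest run in neither state was 13400001 to 15480000, with means of -0.05 in LNCaP and -0.14 in VCaP over 52 bins.

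On the long arm the longest VCaP domain was 46280001 to 51400000. Its 128 bins had a mean of 0.57 in VCaP (range 0.05 to 1.17) and -0.08 in LNCaP (-0.45 to 0.35). The longest LNCaP domain was 40440001 to 42080000, with 0.30 in LNCaP and 0.60 in VCaP. The longest run associated in both lines was 59000001 to 60600000, with 0.28 in LNCaP and 0.75 in VCaP over 40 bins. The longest run in neither state was 51400001 to 53360000, with -0.12 and 0.10 over 49 bins.

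Stretches of 5 or more neighbouring bins that only 1 line had in the associated state were ranked by their mean difference. The values of the lines lie apart in such runs in part by construction, since state and rank both rest on them. There were 10 VCaP-only runs on the short arm and 15 on the long arm, and 3 and 1 LNCaP-only runs. On the short arm the largest VCaP-only run by difference was 600001 to 4280000. Its 92 bins had a mean of -0.08 in LNCaP (-0.36 to 0.22) and 0.57 in VCaP (-0.03 to 1.16), 0.65 apart (noise SD 0.04). The next were 4640001 to 5280000, with a difference of 0.62, and 22520001 to 26120000, with 0.58. In the second of these 3 runs the values of the lines did not overlap: LNCaP had at most 0.15 and VCaP at least 0.26.

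The long arm held the larger differences. The run from 60600001 to 61080000 averaged -0.04 for LNCaP and 1.06 for VCaP, 1.10 apart (noise SD 0.10). Its 12 bins lay between -0.16 and 0.11 in LNCaP and between 0.93 and 1.21 in VCaP. The lines did not overlap there, which the choice of the run favours. The run from 61240001 to 62960000, at the end of the arm, had -0.04 and 0.94 over 43 bins, a difference of 0.98. The third, from 34480001 to 36360000, had -0.08 and 0.72 over 47 bins, a difference of 0.80.

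LNCaP-only runs were few, and their differences were smaller in size than those of the VCaP-only runs named above. The single one of the long arm, from 53360001 to 54640000, averaged 0.46 in LNCaP (-0.05 to 0.70) and -0.06 in VCaP (-0.41 to 0.20). Over its 32 bins VCaP minus LNCaP was -0.52 (noise SD 0.06). It contains the bin with the lowest difference of the chromosome, from 54440001 to 54480000, with 0.70 in LNCaP and -0.41 in VCaP. On the short arm the 3 LNCaP-only runs were 15480001 to 15920000 (difference -0.27, noise SD 0.10), 9640001 to 9920000 (-0.20, noise SD 0.13) and 11560001 to 11880000 (-0.07, noise SD 0.12). The last was smaller in size than its noise SD.

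Whether the lines rose and fell in the same places depended on the scale. Across single bins Pearson r was 0.34 on the short arm and 0.35 on the long arm (Spearman rho 0.36 and 0.41), and r was 0.28 over the genome. Across means of 1 Mb windows r was 0.11 over 26 windows of the short arm and -0.07 over 33 of the long arm, against 0.17 over the genome. Means of 5 Mb windows with at least 75 bins gave -0.56 and -0.49, over only 5 and 6 windows, against 0.07 over the genome. That minimum left out the last long-arm window, from 60000001 to 62960000, with 74 bins (0.04 in LNCaP, 1.00 in VCaP). With so few windows and this cut, no sign is read from the 5 Mb values. The 1 Mb value of the long arm rests on the windows from 53 to 55 Mb, and without them r was 0.35. Within 1 Mb windows, after subtracting each window's mean from its bins, r was 0.57 on the short arm and 0.69 on the long arm, against 0.48 over all arms. These correlations describe bins of the same libraries, neighbouring bins share averaged entries, and base composition was not computed.

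**Figure D4:**
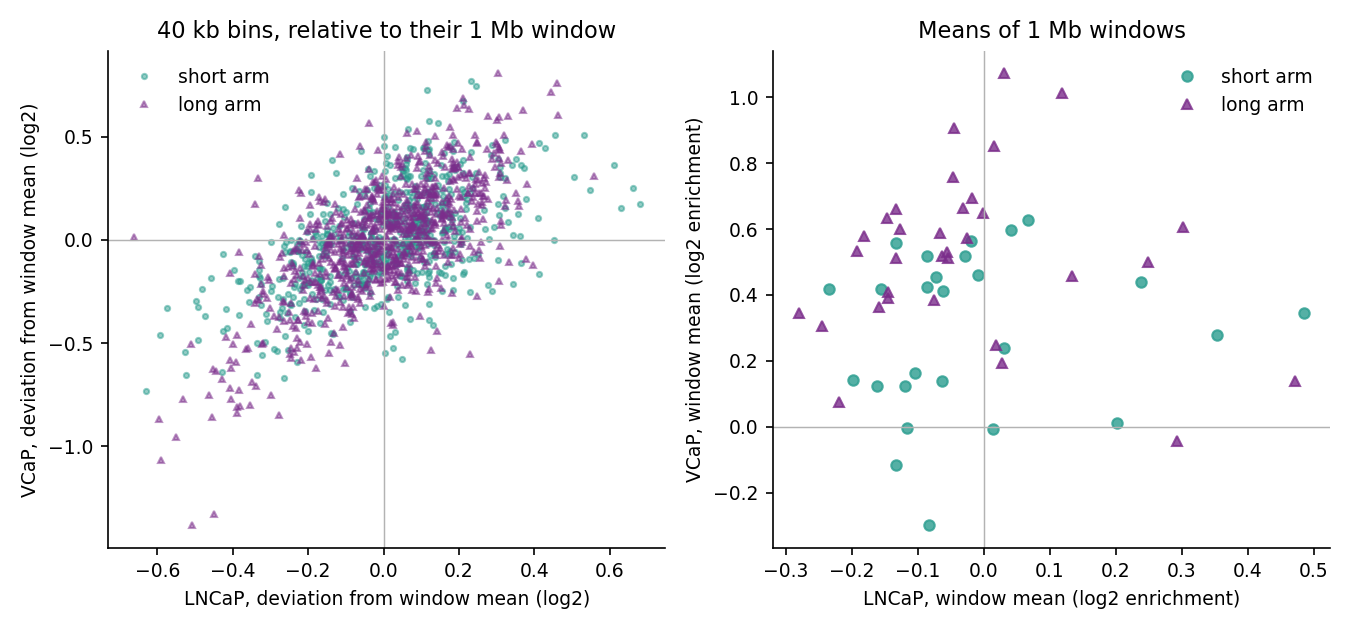
LNCaP against VCaP on chromosome 20 at 2 scales, short arm as circles and long arm as triangles: left, the deviation of each 40 kb bin from the mean of its 1 Mb window; right, the window means, all in log2 units. Bins follow each other within windows (Pearson r 0.57 and 0.69), whereas window means follow each other less (0.11 and -0.07, the latter 0.35 without the windows from 53 to 55 Mb).

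Local lows and highs were compared next, as deviations from the mean of the 1 Mb window. Of the 65 short-arm bins in the lowest 10% of local deviations in LNCaP, 33 (50.8%) were in the lowest 10% in VCaP. On the long arm it was 49 of 83 bins (59.0%), and over all arms 39.0%. The highest 10% coincided less, in 33.8% of bins on the short arm and 38.6% on the long arm, against 28.0% over all arms. In the LNCaP lows of the long arm, VCaP was below its own window mean in 79 of 83 bins (95.2%), with a median deviation of -0.42. Over all arms it was 82.0%, with a median of -0.28.

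Shared lows of at least 3 bins numbered 3 on the short arm and 10 on the long arm, which has more bins. The cut was that of each arm, and no count over other arms is given here. On the short arm only the bin from 9200001 to 9240000 parts 2 of them. They are low relative to their window: the long-arm one from 61480001 to 61640000 had a VCaP mean of 0.55. The lowest shared low of the long arm in VCaP was 58480001 to 58640000, which lies between 2 VCaP domains. Its 4 bins read -0.53, -0.58, -0.53 and -0.43 in LNCaP and -0.94, -0.999, -0.48 and -0.03 in VCaP. With the averaging of 3 entries undone, VCaP read -1.18, -0.59, 0.33 and 0.18, and LNCaP read -0.66, -0.62, -0.32 and -0.35. Of these 4 bins only the first 2 were thus low in VCaP. The VCaP low also began before them. Over the 5 bins from 58440001 to 58640000 the undone VCaP mean was -0.50, against -0.32 over the 4. The second of the 4 deposited VCaP bins was the lowest of the chromosome in that line. On the short arm the bins from 9240001 to 9360000 read -0.61, -0.69 and -0.71 in LNCaP and -0.30, -0.34 and -0.47 in VCaP, and the last was the lowest short-arm bin in LNCaP.

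Domain borders coincided in a few places. Of the 16 LNCaP borders on the short arm, 3 lay within 80 kb of a VCaP border of the same direction, as did 3 of 13 on the long arm (18.8% and 23.1%, against 24.1% over the genome). The border at 7920001 fell on the same bin in both lines and ended the domain described above. From 7760001 to 7920000 the 4 bins read 0.39, 0.43, 0.34 and 0.24 in LNCaP and 0.38, 0.41, 0.37 and 0.29 in VCaP. The next 4 read 0.10, -0.04, -0.18 and -0.40 in LNCaP and 0.14, -0.20, -0.44 and -0.79 in VCaP. Both lines fell together there, and VCaP fell further, to the lowest short-arm bin of that line.

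The ends of the arms were compared in steps of 2 Mb. In the last 2 Mb of the long arm VCaP had a mean of 0.99 (SD over 49 bins 0.28) and LNCaP -0.01 (SD 0.20). In the first 2 Mb of the short arm VCaP had 0.49 (SD 0.30 over 48 bins) and LNCaP -0.08 (SD 0.20). Beside the centromere gap the VCaP means were 0.50 on the short arm and 0.65 on the long arm, with LNCaP at -0.13 and -0.01. As means over 2 Mb, VCaP was thus high at all 4 ends, and LNCaP was near or below 0 at each of them. Nearer the ends this did not hold throughout. VCaP averaged 0.17 from 80001 to 600000 and -0.09 from 26120001 to 26280000, with no associated bin in either stretch. LNCaP averaged 0.51 from 29800001 to 30080000. No bin of the outer 2 Mb of the short arm was associated in LNCaP, and 72.9% were in VCaP.

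Among 41 chromosome arms, those of chromosome 20 ranked apart in the lines. By median enrichment in VCaP the long arm ranked 6 from the top and the short arm 10. In LNCaP they ranked 33 and 31. By the median difference between the lines they ranked 3 and 8. The spread of bins in LNCaP was the smallest of the 41 arms on the long arm (SD 0.25) and the next smallest on the short arm (SD 0.25), against 0.38 over all bins of the genome. The correlation within 1 Mb windows ranked 1 on the long arm and 10 on the short arm.

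**Figure D5:**
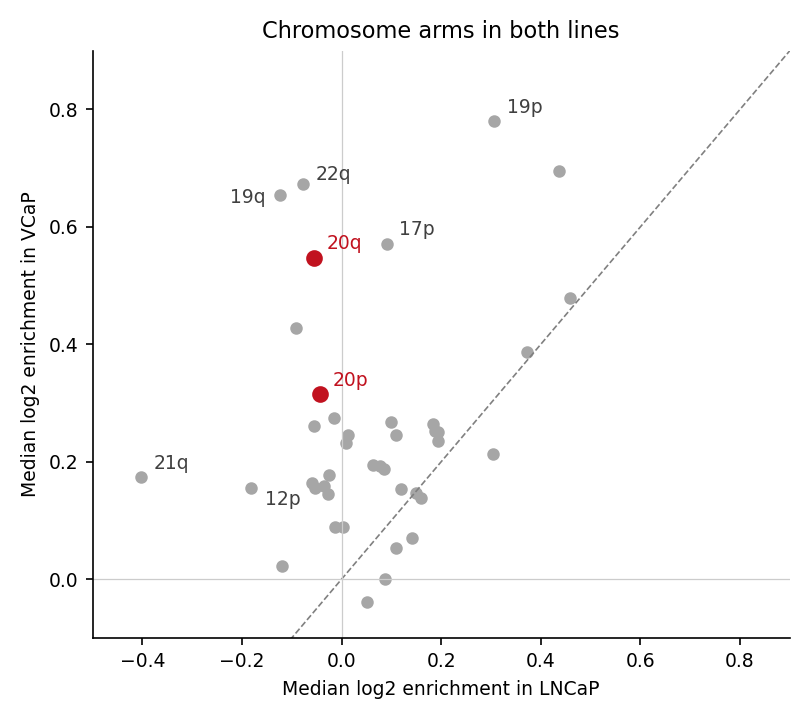
Median lamin B1 log2 enrichment of 41 chromosome arms in LNCaP (horizontal axis) and VCaP (vertical axis); the arms of chromosome 20 are red, the named grey points are the arms nearest to them in number of bins, and the dashed line marks equal values. The short arm (20p) sits at -0.04 and 0.32 and the long arm (20q) at -0.05 and 0.55, both above the line.

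Arms with a similar number of bins gave different pictures. For the short arm these were 19p (614 bins), 17p (555) and 19q (784). VCaP medians there were 0.78, 0.57 and 0.65, all higher than the 0.32 of the short arm of chromosome 20, and LNCaP medians were 0.31, 0.09 and -0.12. For the long arm these were 21q (842 bins), 12p (870) and 22q (875). Their medians were -0.40, -0.05 and -0.08 in LNCaP and 0.17, 0.15 and 0.67 in VCaP, so 22q had the nearest VCaP median and 12p the nearest LNCaP median. These ranks and neighbours are descriptions of 1 library pair per line.

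The contrast between the arms can be set beside that of the other chromosomes. Of 18 chromosomes with both arms measured, chromosome 20 had the largest long minus short arm difference in VCaP (0.23) in the positive direction. In LNCaP its difference was the next to smallest in size. Chromosomes 4, 8 and 16 had VCaP differences of a similar size in the opposite direction, -0.27, -0.23 and -0.22. The LNCaP and VCaP contrasts had opposite signs on 8 of the 18 chromosomes.

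Genes were placed on arms only, by their order in the RefSeq gene table of GRCh38.p14, and not in bins, since that table is of another build. It lists 180 protein-coding genes on the short arm and 356 on the long arm. All 11 listed cystatin genes, among them CST3, an inhibitor of cysteine proteases, are on the short arm. All 18 listed genes of the WFDC cluster are on the long arm, with SEMG1 and SEMG2, which encode the main proteins of the semen clot, as are all 10 listed genes of the BPI fold cluster. Of 15 listed genes linked to the prostate or to androgen and steroid signalling, 5 are on the short arm, such as FOXA2, a pioneer transcription factor of endoderm, and 10 are on the long arm, such as PMEPA1, an androgen-induced inhibitor of TGF-beta signalling, and NCOA3, a nuclear receptor coactivator. Their enrichment was not analysed here.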

How the data were processed

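The authors deposited log2 enrichment of lamin B1 ChIP over input in bins, 1 table per line, and a table of hidden Markov model states (AD, iAD), per the deposited file names. The submitters' processing notes name hg19 and STAR. Scaling, filters and smoothing are not given in the sources used here. AD, the state of higher enrichment, was taken as associated.

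Each deposited log2 value was found to be a mean over 3 entries, its own and those before it: undoing that mean brought the median absolute value in entries wider than 40 kb from 0.21 to 0.0069 in LNCaP and from 0.33 to 0.0066 in VCaP. Neighbouring bins are thus dependent, and signal lies about 40 kb downstream.

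Noise is the median absolute difference of bins 3 apart, times 1.4826 and over the square root of 2, and for a mean it was divided by the square root of the number of bins over 3. Other arms were split at the largest gap of their chromosome, acrocentric chromosomes gave a long arm only, and chromosome Y was left out. The text names, in each arm, the 3 runs per direction with the largest mean difference among runs of at least 5 bins, the longest runs and domains, the extreme windows of 5 Mb and the 3 arms nearest in number of bins. Shared lows, borders and single bins were chosen after their values were seen. The members, lists and rules were chosen with earlier results of these data known. Procedures were tested on simulated data. Alternatives were the undone mean, bins beside gaps left out, means, centring, quantile normalization, other thresholds and windows, and enrichment over 0 as the state. Gene enrichment, which needs an annotation of hg19, was not analysed here. The tools were matplotlib 3.10.9, scipy 1.17.1, pandas 2.3.3, numpy 2.4.6 and Python 3.11.15.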

Additional observations from a re-analysis of the deposited data

Results flagged for a closer look

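The long minus short arm difference of medians was -0.012 in LNCaP and 0.23 in VCaP, of opposite sign. Neither sign nor size was tested, since each line has 1 library pair. Without the stretch from 8 to 17 Mb, chosen after seeing the data, LNCaP read 0.0047 and VCaP 0.13, and the opposite signs rest on that stretch.

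On each arm LNCaP and VCaP had medians on opposite sides of 0. The short arm read -0.043 in LNCaP and 0.32 in VCaP, and the long arm read -0.055 and 0.55. This was not tested either, and the place of 0 rests on a scaling that is not known here.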

How the results depend on the processing

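For 22 results there were 81 alternative values, and 62 stayed within the spread: the noise SD of 1 bin for levels, a 95% binomial interval of the share with 1 independent value per 3 bins, 1.5 times for counts and 0.1 for correlations. A bin noise SD is a wide limit for an arm median, so this says little of the levels: long minus short ran from 0.13 to 0.23 in VCaP and from -0.017 to 0.0047 in LNCaP. The sign of both line differences held throughout. With enrichment over 0 as the state, the associated share was 40.6% in LNCaP and 78.9% in VCaP on the short arm and 40.3% and 91.5% on the long arm, with 48, 29, 52 and 29 domains. The VCaP share of the short arm was 83.3% without 8 to 17 Mb, chosen after seeing the data. Bins with a difference over 0.5 fell to 17.7% (short) and 47.2% (long) with centring and to 18.0% and 47.7% with quantile normalization. The shares of all bins under these 2 scalings are not given here. A threshold of 1 left 1.83% and 5.26% over it and 0% and 0.120% under -1, by its construction. In means of 1 Mb windows r was 0.11 on the short arm and -0.071 on the long arm, reversed there, and 0.35 without the windows from 53 to 55 Mb, chosen after seeing the data. The other causes were not tested. No paired analysis was possible because replicates are lacking in all 4 groups. Read depth being unknown, bin noise is the only limit at hand for single regions, and it does not measure the spread between libraries.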

Other observations

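A short stretch near the end of the long arm held the highest VCaP values of the chromosome. The 4 bins from 61080001 to 61240000 read 1.40, 1.54, 1.67 and 1.46 in VCaP and 0.34, 0.43, 0.36 and 0.17 in LNCaP. They form the shortest LNCaP domain of the arm, so LNCaP and VCaP were both associated there, with differences between 1.06 and 1.31. The bins on each side belong to VCaP-only runs, with LNCaP means of -0.04 in both. With the averaging of 3 entries undone, LNCaP read 0.60, 0.42, 0.06 and 0.01 and VCaP 1.86, 1.51, 1.63 and 1.23, so LNCaP was high in the first 2 bins only. These bins were chosen after their values were seen.

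The bin with the highest LNCaP value of the chromosome lies at the other end of the long arm, from 29880001 to 29920000. It read 0.77 in LNCaP and 0.81 in VCaP. It is inside the first LNCaP domain of the long arm, from 29800001 to 30080000, which follows an entry of 120 kb that is no member, since it is wider than 40 kb.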
